A study of Mus musculus with 28 samples.

Results

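The arrays described here compared mouse embryonic fibroblasts (MEFs) that received MYOCD, MEF2C, NKX2.5 and TBX5 (DMNT, 4 arrays) with MEFs that received NKX2.5, GATA4, MEF2C and TBX5 (NGMT, replicates 4 to 6, 3 arrays). They were chosen by title and replicate number, and they make up 7 of the 28 arrays of the series. MEF2C, TBX5 and NKX2.5 were common to both cocktails, so the cocktails differed in carrying MYOCD or GATA4. The series as a whole tested combinations of cardiac transcription factors for turning fibroblasts into induced cardiomyocytes. Each factor came on a lentivirus of its own under a doxycycline-responsive promoter, together with a virus for the rtTA activator and a reporter virus in which a Troponin T promoter drives the calcium sensor GCaMP5 and zeocin resistance. Doxycycline was given at 2 µg/mL, zeocin at 300 µg/mL for the last 7 days, and RNA was collected on day 21. All factor-treated cells were therefore selected on Troponin T promoter activity before RNA was taken, and the sources used here do not give the share of cells that held every virus. Beside these arrays, DMT (MYOCD, MEF2C and TBX5; replicates 1 to 3 and, apart, replicate 4), GMT (GATA4, MEF2C and TBX5; replicates 3 to 5) and 0F (MEFs without factor viruses, also collected on day 21; 3 arrays) were used as references. The labels disagree on 0F: its titles and protocol describe cells that were not transduced, while its source name is the zeocin-selected one that all samples of the series carry. It is read here as not transduced. The labels call the replicates independent and biological. The p-values rest on the spread between replicates pooled over the groups of all 28 arrays, not on that of the compared arrays alone.

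Myocardin, the product of Myocd, is a coactivator that binds serum response factor (SRF) and switches on genes whose promoters hold CArG boxes, among them the contractile genes of smooth muscle and several sarcomere genes of the heart. GATA4 is a zinc finger factor that binds DNA itself and acts with TBX5, MEF2C and NKX2.5 in heart development. NKX2.5 is the homeodomain factor of the early heart, and Nppa, which encodes atrial natriuretic peptide, is a classical target on which it acts together with GATA4.

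The 5 arrays of DMNT and DMT replicate 4 had deposited medians of 7.64 to 7.653 (log2), against 6.682 to 6.948 on the other 23 arrays. All DMNT arrays lay in this set and no NGMT array did, so the factor and the array set are confounded in a direct comparison. All arrays were quantile-normalized first, 1 probe set was kept per gene, and 12211 genes above the array median of 6.98 on at least 3 arrays were tested. After normalization the DMNT arrays correlated with each other at a Pearson r of 0.9967 to 0.999 across genes, the NGMT arrays at 0.9964 to 0.9982, and DMNT with NGMT at 0.937 to 0.9491. DMT replicate 4 itself differed from DMT replicates 1 to 3 in 3904 genes (32% of those tested), although both carry the same factors. The direct difference (DMNT minus NGMT) is therefore given beside a difference anchored on DMT, in which DMNT is set against DMT replicate 4 and NGMT against DMT replicates 1 to 3. The anchored difference rests on 1 array of DMT in the DMNT set, whose own spread is not measured: limma takes it from the other groups, and the array is assumed to vary as they do. The same exchange of MYOCD for GATA4 without NKX2.5, DMT replicates 1 to 3 minus GMT replicates 3 to 5, lies within 1 array set and shares no array with the direct difference. It shares the DMT arrays with the anchored difference, so those values are given side by side only.

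With MYOCD in place of GATA4 beside NKX2.5, smooth muscle contractile genes and the muscle actins Actg2, Acta2, Acta1 and Actc1 were higher, and interferon-response genes, the complement genes C4b and Cfb and a part of the adipocyte genes were lower. The direct comparison called 7420 of 12211 genes (limma, adjusted p under 0.05), 60.8% of those tested, with 3988 higher and 3432 lower in DMNT. That split depended on the scaling: it was 1866 higher and 7145 lower with each array centred on its median, and 10874 higher and 431 lower on the deposited values. The median of all genes lay at 0.02 with quantile normalization, at -0.22 with median centring and at 0.55 on the deposited values. The DMNT and NGMT arrays did not overlap in 9135 genes (74.8%). At a difference of at least 2-fold, 519 genes were called (4.25%), 226 higher (1.85%) and 293 lower (2.4%).

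The anchored comparison called 767 genes (6.28%), 435 higher (3.56%) and 332 lower (2.72%), and 717 genes (5.87%) were called the same way in the direct and the anchored comparison. DMT against GMT called 2089 genes (17.1%), 1092 higher (8.94%) and 997 lower (8.16%), of which 208 (1.7%) differed by at least 2-fold. Of the 519 genes called at 2-fold or more between DMNT and NGMT, 504 (97.1%) had the same sign in DMT minus GMT, 443 (85.4%) were called the same way there and 0 were called the opposite way. Over all genes tested, 68.1% had the same sign and 15.8% were called in DMT against GMT with the sign of the direct difference. Of the 208 genes that differed by at least 2-fold between DMT and GMT, 184 also did between DMNT and NGMT, which is 88.5% of the shorter list and 35.5% of the longer. Across the 12211 genes the differences had a Pearson r of 0.792 and a Spearman rho of 0.56, with a slope of 1.24 through the origin. Genes are not independent replicates, and this is a description of these arrays.

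**Figure D1:**
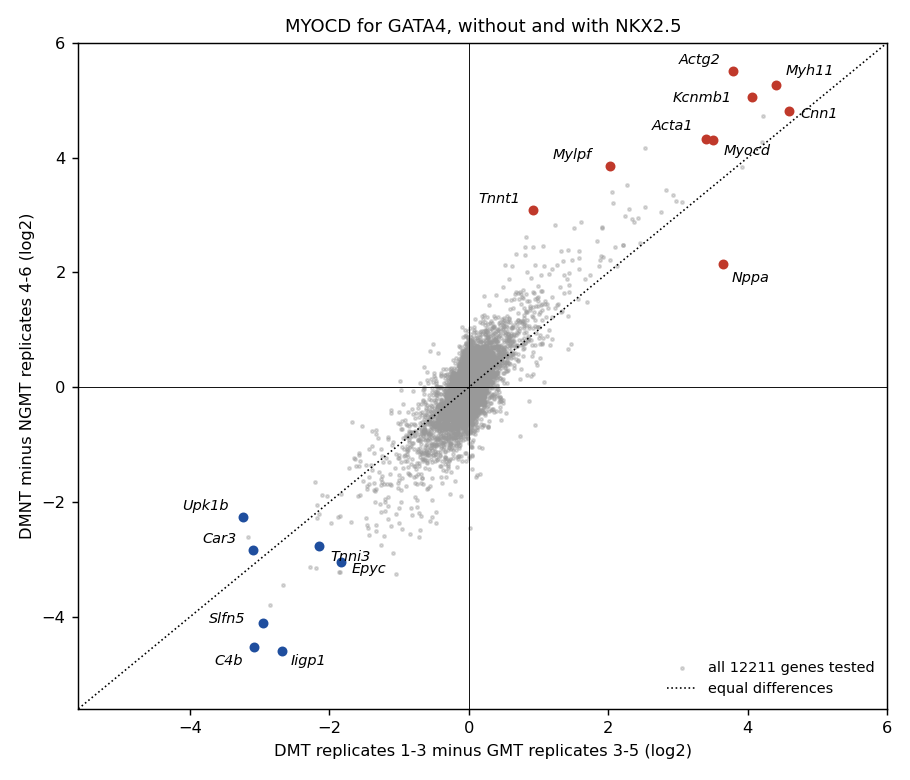
Log2 difference of each of the 12211 genes tested (grey points) between DMT replicates 1 to 3 and GMT replicates 3 to 5 (x axis) and between DMNT and NGMT replicates 4 to 6 (y axis), with named genes in red (higher in DMNT) or blue (lower) and a dotted line where both differences are equal. Most far points lie near the line or beyond it on the y axis, as Actg2 does at 3.78 and 5.50, and Nppa lies below the line at 3.64 and 2.14.

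The probe set of Myocd followed the labels. Its log2 level was 10.59, 10.61, 10.52 and 10.72 on the DMNT arrays and 6.32, 6.28 and 6.32 on the NGMT arrays. It was 10.69 in DMT replicate 4, 9.59 to 9.83 in DMT replicates 1 to 3 and 5.61 to 5.73 in 0F. All DMNT arrays lay above all NGMT arrays, with a direct difference of 4.30 ± 0.07 (SE; adjusted p = 6.74e-23, limma) and an anchored difference of 3.28 ± 0.13. The probe set of Gata4 did not follow them. Its level was 7.01, 7.01, 6.90 and 7.13 in DMNT and 7.19, 7.08 and 7.15 in NGMT, so the groups overlapped, and it was 7.24 to 7.29 in 0F without any factor virus. The Gata4 difference of -0.13 ± 0.08 was not called (adjusted p = 0.173), and whether this probe set reads the delivered coding sequence was not tested. The probe sets of the shared factors did not follow the labels either. Nkx2-5 was at 7.97 to 8.10 in NGMT, 7.85 to 8.09 in GMT and 7.97 to 8.06 in 0F, of which only NGMT carried the NKX2.5 virus, and DMNT differed from DMT replicate 4, without that virus, by -0.08. Mef2c and Tbx5 were highest in 0F, at means of 9.96 and 8.53, against 8.87 and 7.69 in DMNT and 9.18 and 8.05 in NGMT. The presence of GATA4, NKX2.5, MEF2C and TBX5 in these cells therefore rests on the labels alone. By the direct test Mef2c was 0.31 lower, Tbx5 0.36 lower and Nkx2-5 0.36 higher in DMNT, and the anchored differences were 0.09, 0.03 and -0.06, none called. Hand2, a factor used in other cocktails of the series, differed by 0.11 ± 0.08.

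Smooth muscle contractile genes were the gene list with the most members higher in DMNT. Of 44 members tested, 40 were higher and 2 lower by the direct test, where 32.7% of all genes were higher, and 23 were higher by at least 2-fold. In the anchored comparison 29 were higher and 0 lower (0 lower also at an unadjusted p under 0.05 in limma), and in DMT against GMT 36 were higher and 2 lower. The list's median difference was 1.03 directly, 0.61 anchored and 0.72 between DMT and GMT, against 0.02, 0.01 and 0.01 over all genes. The filter on dim genes shapes such counts, since 6 of the 44 members were above the array median on enough arrays only through the MYOCD cocktails, where they were high. With no filter, 42 of all 47 members with a probe set were higher and 2 lower directly (37.9% and 23.9% of all genes) and 28 were higher and 0 lower when anchored (2.08% and 1.57% of all genes). DMT replicate 4 exceeded DMT replicates 1 to 3 by a median of 0.36 over the same members. The direct counts of tested members in every list below stand beside 32.7% higher and 28.1% lower over all genes tested. Anchored and DMT against GMT counts stand beside the shares over all genes given above. Counts with no filter stand beside the no-filter shares, 37.9% higher and 23.9% lower directly and 2.08% and 1.57% when anchored. A list whose counts lie near these shares did not stand out from the genes tested. In bulk RNA, more cells of a type and more RNA per cell cannot be told apart.

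Actg2, the enteric smooth muscle actin, had the largest direct difference. Its level was 11.55, 11.65, 11.60 and 11.82 in DMNT and 6.13, 6.10 and 6.23 in NGMT, where it was no higher than in 0F (5.99 to 6.44). The direct difference was 5.50 ± 0.13 and the anchored one 3.64 ± 0.23, since DMT replicate 4 (11.70) also lay above DMT replicates 1 to 3 (9.69 to 10.08). Signals under the array median of 6.98, as in NGMT here, may be close to background, and a difference against them can understate the change.

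Myh11, the myosin heavy chain that defines differentiated smooth muscle, was at 11.87, 11.87, 11.69 and 11.95 in DMNT and at 6.67, 6.54 and 6.57 in NGMT. The groups stood apart by 5.26 ± 0.08 directly and 4.21 ± 0.14 anchored. Cnn1, which encodes the actin-binding protein calponin 1, was at 11.83 to 11.89 in DMNT and at 7.15, 7.01 and 6.94 in NGMT, a direct difference of 4.82 ± 0.09 and an anchored one of 4.25 ± 0.16. Kcnmb1, the smooth muscle subunit of the large-conductance calcium-activated potassium channel, was at 10.03 to 10.17 in DMNT and at 5.06, 5.04 and 4.98 in NGMT. Its differences were 5.06 ± 0.09 and 3.99 ± 0.16, and its pore-forming partner Kcnma1 differed by 0.27 directly and by 0.09 anchored, without an anchored call, and its direct call was lost without DMNT replicate 1 (0.21, adjusted p = 0.0572).

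Genes already well expressed in NGMT differed by less. Acta2, the smooth muscle actin that myofibroblasts also make, was at 13.37 on every DMNT array and at 11.17, 11.16 and 11.13 in NGMT, with differences of 2.21 ± 0.06 and 1.82 ± 0.11. Myl9, a regulatory myosin light chain, was at 12.70 to 12.72 in DMNT and at 9.43, 9.51 and 9.49 in NGMT, while 0F lay between them at 11.21 to 11.32. Tagln, which encodes the actin-binding protein transgelin, was at 12.03 to 12.06 in DMNT and at 8.86, 8.86 and 8.99 in NGMT. In each of these the DMNT arrays spread by less than 0.1 and stood clear of NGMT. Des, which encodes desmin, differed by 0.32 directly but by -0.01 anchored, and Prkg1 and Agtr1a were lower in DMNT, by 0.58 and 0.79, with anchored differences of -0.19 and -0.44 that were not called.

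Most regulators that work with myocardin were not called in the anchored comparison. By the direct test 32.7% of all genes tested were higher and 28.1% lower. Srf differed by 0.06 directly and 0.16 anchored and the myocardin-related Mrtfa by 0.12 and 0.02, none of them called. Of the 20 SRF, myocardin and TEAD regulators tested, 5 were higher and 3 lower directly, and 3 were called in the anchored comparison: Myocd itself, Fhl1 (1.79) and Csrp1 (0.93), both LIM-domain proteins of muscle. Of 18 immediate early SRF targets, 2 were higher and 7 lower directly, and Ccn2, a secreted matricellular protein, was the only member with an anchored call (0.70, adjusted p = 0.035). That call was lost when any 1 DMNT array, any 1 of DMT replicates 1 to 3 or NGMT replicate 4 or 6 was left out (adjusted p = 0.0503 to 0.075).

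**Figure D2:**
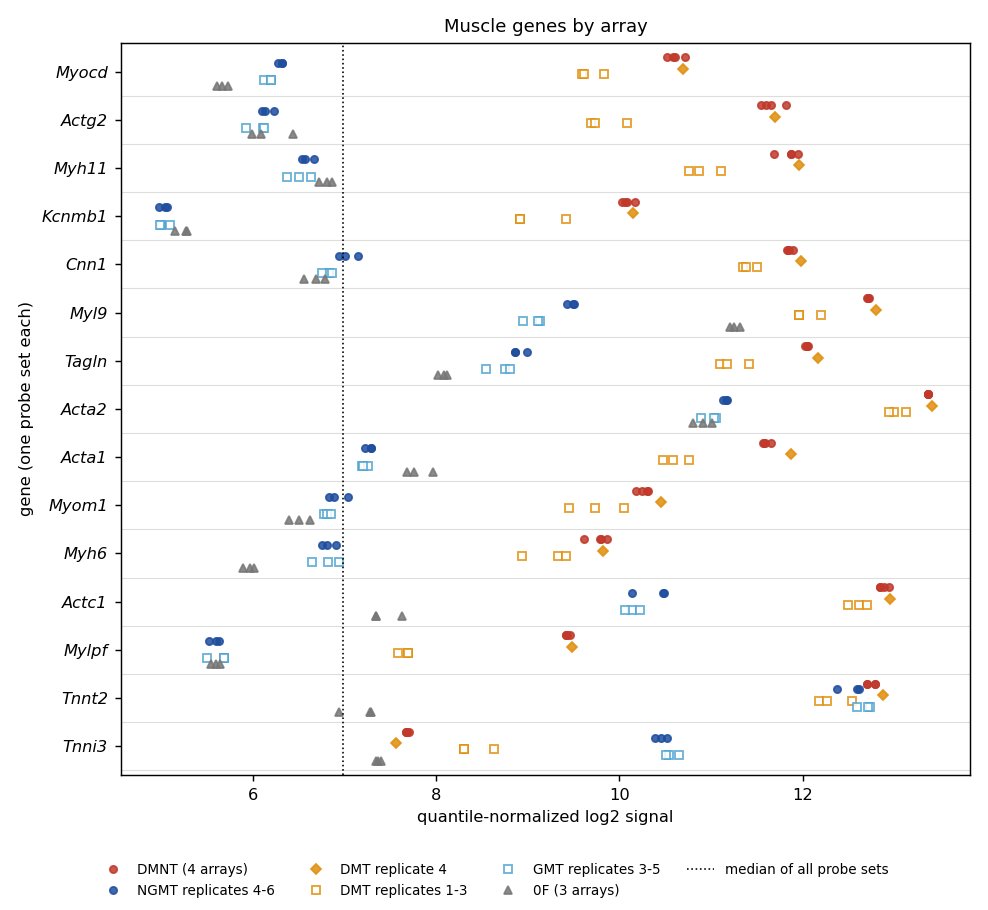
Quantile-normalized log2 signal (x axis) of 15 muscle genes (y axis, Myocd included) on each array of DMNT, NGMT replicates 4 to 6, DMT replicate 4, DMT replicates 1 to 3, GMT replicates 3 to 5 and 0F, with the median of all probe sets as a dotted line. DMNT sits beside DMT replicate 4 and NGMT beside GMT in each row, and the order of DMNT and NGMT is turned for Tnni3, at 7.67 to 7.71 against 10.39 to 10.52.

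The CArG box, the motif that SRF reads, was searched for by its consensus on both strands in RefSeq promoter windows (GRCm38.p6, 250 bases before to 50 after each annotated start). It was found for 15 of the 129 genes with a window among those at least 2-fold higher in DMNT and called the same way when anchored (11.6%), for 3 of 105 among those at least 2-fold lower (2.86%) and for 160 of 9739 tested genes with a window (1.64%). Among all 32851 windows it was found in 1.63%. Of the 34 smooth muscle list members that were higher and had a window, 6 held a match (17.6%). A match is a description of the letters, not of binding. The 250 bases before the start are shown for 4 muscle genes that were higher in DMNT, with the CArG box in capitals. They are Acta1 (chr8:123894776-123895025, minus strand), Actc1 (chr2:114052876-114053125, minus strand), Myl9 (chr2:156775214-156775463, plus strand) and Myom1 (chr17:71019307-71019556, plus strand). The match begins 73, 47, 161 and 99 bases before the start.
Acta1: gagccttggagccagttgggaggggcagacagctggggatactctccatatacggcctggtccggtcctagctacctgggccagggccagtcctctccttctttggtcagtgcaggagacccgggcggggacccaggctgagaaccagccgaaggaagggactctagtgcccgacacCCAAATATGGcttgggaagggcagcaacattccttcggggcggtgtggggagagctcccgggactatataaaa
Actc1: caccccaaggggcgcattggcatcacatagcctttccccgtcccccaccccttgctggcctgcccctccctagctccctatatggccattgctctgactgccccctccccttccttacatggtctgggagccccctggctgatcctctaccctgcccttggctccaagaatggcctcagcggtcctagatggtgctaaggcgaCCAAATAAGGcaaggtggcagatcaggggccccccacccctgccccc
Myl9: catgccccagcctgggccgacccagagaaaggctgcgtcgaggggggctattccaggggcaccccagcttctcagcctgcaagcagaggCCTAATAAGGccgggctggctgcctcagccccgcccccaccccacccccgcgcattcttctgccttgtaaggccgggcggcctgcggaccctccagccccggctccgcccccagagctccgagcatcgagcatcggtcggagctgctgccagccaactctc
Myom1: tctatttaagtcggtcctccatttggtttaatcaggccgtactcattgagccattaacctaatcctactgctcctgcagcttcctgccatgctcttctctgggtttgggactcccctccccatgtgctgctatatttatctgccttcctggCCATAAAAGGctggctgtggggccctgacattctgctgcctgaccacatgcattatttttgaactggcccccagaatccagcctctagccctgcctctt

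Sarcomere genes were split, beside 32.7% higher and 28.1% lower directly over all genes tested. Of 34 members tested, 26 were higher and 5 lower directly, but 13 were higher and 5 lower in the anchored comparison, and 15 were higher and 8 lower in DMT against GMT. The list's median was 0.63 directly, 0.12 anchored and 0.16 between DMT and GMT, and DMT replicate 4 exceeded DMT replicates 1 to 3 by a median of 0.49. Of the 34, 3 passed the filter only through the MYOCD arrays and 3 only through the other arrays, and with no filter 36 of 46 members were higher and 6 lower directly and 14 higher and 4 lower when anchored. The 5 anchored falls became 3 without DMT replicate 2, NGMT replicate 6 or DMNT replicate 4.

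Acta1, the skeletal muscle actin that fetal heart also uses, was at 11.57, 11.59, 11.58 and 11.65 in DMNT and at 7.23, 7.29 and 7.29 in NGMT, with differences of 4.33 ± 0.07 and 3.07 ± 0.13. Actc1, the cardiac actin, was at 12.84 to 12.94 in DMNT and at 10.48, 10.14 and 10.49 in NGMT, with differences of 2.51 ± 0.10 and 2.16 ± 0.18. The muscle actins are near-identical in coding sequence, so their probe sets may share signal. Myom1, which encodes the M-band protein myomesin, was at 10.18 to 10.31 against 6.89, 7.04 and 6.83, and Myh6, the alpha myosin heavy chain of the heart, at 9.80, 9.61, 9.79 and 9.87 against 6.81, 6.91 and 6.76. In all 4 genes GMT lay with NGMT, and the DMNT and NGMT arrays did not overlap, as in 74.8% of all genes tested. For Acta1 and Myom1 the absence of overlap was a condition of the rule that named them.

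Other cardiac sarcomere genes were lower with MYOCD. Tnni3, the troponin I of the adult heart, was at 7.67, 7.67, 7.68 and 7.71 in DMNT and at 10.46, 10.39 and 10.52 in NGMT. DMNT lay near 0F (7.35 to 7.40), and the difference was -2.77 ± 0.11 directly, -1.92 ± 0.19 anchored and -2.15 ± 0.11 between DMT and GMT. Smpx, Fhod3 and Mybpc3, which encode proteins of the contractile apparatus and its support, were lower by 0.43, 0.44 and 0.35 directly, with anchored differences of -0.97, -0.71 and -0.38, the last not called. The anchored call of Fhod3 (adjusted p = 0.0484) was lost when any 1 DMNT array, DMT replicate 2 or 3 or NGMT replicate 4 or 6 was left out (adjusted p = 0.0674 to 0.117). That of Smpx (adjusted p = 0.0314) was lost without DMNT replicate 4, DMT replicate 2 or NGMT replicate 4 or 6 (0.05 to 0.0787), and its direct call without NGMT replicate 4 (0.0582). Tnnt2, the troponin T whose promoter drives the selection, was at 12.70 to 12.79 in DMNT and at 12.59, 12.38 and 12.61 in NGMT, far above 0F (6.94 to 7.29) in both. Its differences were 0.22 ± 0.09 directly and -0.33 ± 0.16 anchored, so their signs disagree and only the first was called, and that call was lost without DMNT replicate 1 or 4 (adjusted p = 0.0774 and 0.0771) or NGMT replicate 5 (0.15, adjusted p = 0.213). Myl4, the atrial essential light chain, was 0.36 higher directly and 0.61 lower when anchored, both called, so its direction is not settled by these arrays. Pln, Myl2 and Myl3, defining genes of mature cardiomyocytes, did not pass the filter and had mean levels of 5.99, 6.24 and 6.93 in DMNT and 5.80, 5.60 and 6.01 in NGMT.

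Some skeletal muscle genes were also higher, Mylpf and fast myosin genes among them. The list is mostly dim on these arrays: 19 of its 39 members passed the filter, 5 of them only through the MYOCD arrays where they were high, so counts over the 19 are partly set by the filter. Over all 39 with no filter, 32 were higher and 1 lower directly and 8 were higher and 1 lower when anchored. The median was 0.51 directly and 0.06 anchored. Of all genes with no filter, 37.9% were higher and 23.9% lower directly, and 2.08% and 1.57% when anchored. Among the 19 alone, 16 were higher and 0 lower directly and 9 higher and 0 lower when anchored (0 lower at an unadjusted p under 0.05, limma, both ways), with medians of 0.95 and 0.66. Mylpf, the fast-muscle regulatory light chain, was at 9.42 to 9.46 in DMNT, at 5.52 to 5.63 in NGMT and at 5.55 to 5.64 in 0F, with differences of 3.85 ± 0.06 and 2.03 ± 0.10. Myh1, a fast myosin heavy chain, was at 9.72 to 9.76 against 6.30, 6.55 and 6.19, and its neighbours in the myosin cluster, Myh4 and Myh2, differed by 2.87 and 2.43 directly and 1.52 and 1.22 anchored, with probe sequences that may be shared. The anchored call of Myh2 (adjusted p = 0.0453) was lost when any 1 DMNT array, DMT replicate 1 or 2 or NGMT replicate 4 or 6 was left out (adjusted p = 0.0618 to 0.115). Tnnt1, the slow troponin T, was at 8.67 to 8.89 in DMNT and 5.63 to 5.79 in NGMT, but DMT replicate 4 (8.77) exceeded DMT replicates 1 to 3 (6.40, 7.19 and 6.55) by 2.05, and the anchored difference was 1.03 ± 0.21. The myogenic factors Myod1 and Myog did not pass the filter, with means of 6.90 and 5.97 in DMNT and 6.39 and 5.71 in NGMT. Myogenic factor levels thus lay under the array median while fast myosin genes were higher.

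Among calcium-handling genes 14 of 25 were higher and 7 lower directly, and 4 were higher and 1 lower when anchored. Over all genes tested, 32.7% were higher and 28.1% lower directly, so the 7 lower members were near the general share. Casq2, the cardiac calsequestrin that stores calcium in the sarcoplasmic reticulum, was at 9.48 to 9.56 in DMNT and at 6.38, 6.37 and 6.54 in NGMT, with differences of 3.10 ± 0.08 and 2.20 ± 0.15. Srl, which encodes sarcalumenin of the same store, was at 11.07 to 11.27 against 8.12 to 8.14. Ryr2, the calcium release channel of that store, was at 6.61 to 6.63 in DMNT and at 7.30, 7.18 and 7.28 in NGMT, a difference of -0.64 ± 0.07 directly and -0.61 ± 0.13 anchored. The store proteins and the release channel thus differed in opposite directions, with DMNT near 0F for Ryr2 (6.37 to 6.57).

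Of 18 ion channel and gap junction genes, 10 were higher and 3 lower directly and 4 were higher and 1 lower when anchored. Among all genes tested, 32.7% were higher and 28.1% lower directly. Popdc2, a cyclic AMP-binding membrane protein of heart and muscle, was at 9.80, 9.67, 9.75 and 9.94 in DMNT and at 7.59, 7.39 and 7.51 in NGMT. Hcn4, the pacemaker channel, was at 8.78 to 9.09 against 7.19, 6.92 and 6.80, with differences of 1.96 ± 0.10 and 1.32 ± 0.19. Kcnip2, a subunit of the transient outward potassium channel, was at 8.25 to 8.28 against 6.10 to 6.16, with differences of 2.12 directly and 0.93 anchored. Each of the 3 genes was higher on every DMNT array than on every NGMT array, while 74.8% of all genes tested showed no overlap. Popdc3 was the member lower in both comparisons, by 1.09 directly and with an anchored difference of -0.45 (adjusted p = 0.0453). Its anchored call was lost when any 1 DMNT array, any 1 NGMT array or DMT replicate 2 or 3 was left out (adjusted p = 0.0564 to 0.0992), and with no filter 3 of 29 members were higher and 0 lower when anchored.

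Nppa was high in DMNT, NGMT and DMT and low in GMT. Its level was 12.67, 12.67, 12.72 and 12.76 in DMNT and 10.84, 10.21 and 10.65 in NGMT, which did not overlap. DMT replicate 4 was at 12.56, DMT replicates 1 to 3 at 11.39, 11.25 and 11.52, GMT at 7.67, 7.67 and 7.90 and 0F at 6.48 to 6.51. The direct difference was 2.14 ± 0.11 (adjusted p = 1.5e-13, limma) and the anchored one 0.96 ± 0.20 (adjusted p = 0.00314). With all 6 NGMT arrays in place of replicates 4 to 6 the direct difference was 1.20 (adjusted p = 0.00446), with the array set as a term in the fit it was 0.87 (adjusted p = 0.0121), and on within-array percentile ranks the anchored call was lost, with a difference of 5.03 percentile points (adjusted p = 0.265). Without NKX2.5 the same exchange gave 3.64 ± 0.12, the DMT minus GMT difference. With all 6 NGMT arrays the direct difference was smaller, so NGMT replicates 1 to 3 averaged above replicates 4 to 6 in Nppa. These replicates lie in different array sets, and the size of the direct difference depends on the NGMT arrays chosen. The fit with the array set as a term links DMNT to the other sets through DMT replicate 4 alone. Its 0.87 therefore rests on that array, as the anchored difference does.

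The effect of NKX2.5 was then compared between the cocktails, each within its own array set. Beside GATA4, NGMT exceeded GMT in Nppa by 2.82 ± 0.12 (adjusted p = 2.19e-13). Beside MYOCD, DMNT differed from DMT replicate 4 by 0.14 ± 0.16, where the single DMT array has no spread of its own and the SE comes from the other groups, so the missing call does not show that NKX2.5 had no effect there. The difference of these effects was -2.68 ± 0.20 (adjusted p = 4.16e-08), and Nppa was the only gene of 12211 called in this interaction (0.00819% of genes tested), with 292 genes at an unadjusted p under 0.05. The test rests on 1 DMT array on the MYOCD side, and its SE and p assume that this array varies like the other groups. The presence of NKX2.5 rests on the labels. On the GATA4 side NGMT replicates 4 to 6 were used, and the test was not run with replicates 1 to 3, where Nppa was higher. The median half-width of a gene's 95% interval was 0.241. Recovery was simulated with independent normal noise, 100 changed genes of each size and no difference between array sets. DMT replicate 4 was given the pooled spread of the groups there. Fewer real changes make the adjusted cutoff stricter, so the recovered shares may be too high for the real data. In simulated data of the same layout, 54% of genes with an interaction of 0.5 and 89% of those with 1 were recovered. Over all genes, NGMT against GMT called 4 genes and DMNT against DMT replicate 4 called 9, with 344 and 443 at an unadjusted p under 0.05.

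Nppb, which encodes the related B-type peptide, did not share the pattern. It was at 8.81 to 8.98 in DMNT and at 7.71, 7.43 and 7.68 in NGMT, a direct difference of 1.26 ± 0.11, but DMT replicate 4 was at 8.94 and DMT replicates 1 to 3 at 7.31 to 7.54. The anchored difference was -0.23 ± 0.19 and DMT minus GMT was 0.21 ± 0.11, neither called. Of the 15 atrial and natriuretic genes, 6 were higher and 6 lower directly, and when anchored Nppa was the only member higher while Myl4, Corin and Stard10 were lower. Without NGMT replicate 4 the anchored falls went from 3 to 1, as Corin (adjusted p = 0.0597) and Stard10 (0.0502) were lost, and without NGMT replicate 5 the anchored rises went from 1 to 2. Corin was also lost without DMT replicate 2 (0.0599) and Stard10 without DMNT replicate 1 or 4, DMT replicate 3 or NGMT replicate 5 (0.0525 to 0.0763). Corin, the protease that processes the Nppa product, was lower by 0.50 directly with an anchored difference of -0.45. The direct counts of the list stand beside 32.7% higher and 28.1% lower over all genes tested.

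**Figure D3:**
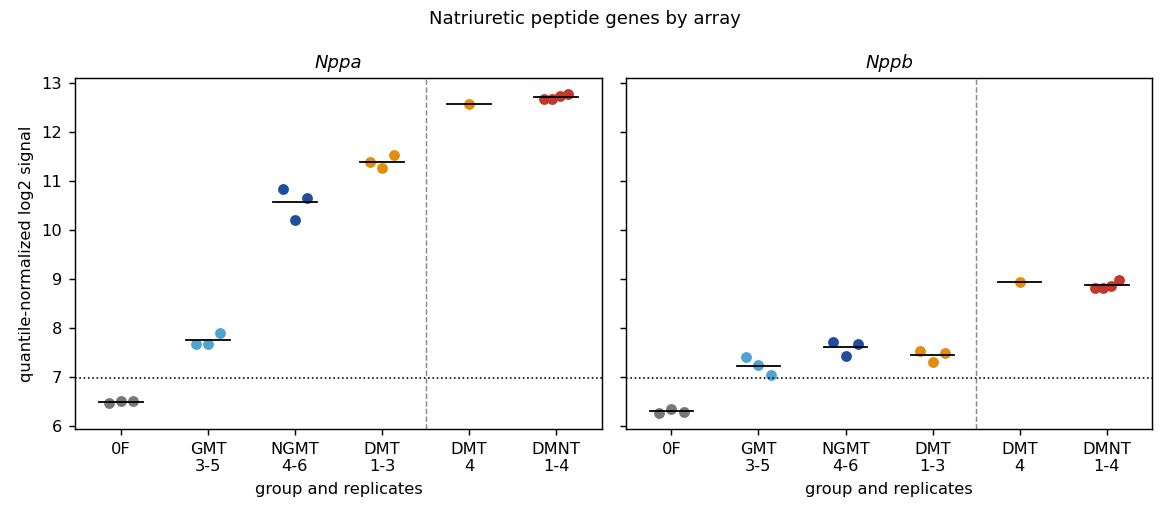
Quantile-normalized log2 signal (y axis) of Nppa (left) and Nppb (right) on each array, by group and replicate (x axis), with the group mean as a black bar, the median of all probe sets as a dotted line and the arrays of the set with higher deposited medians to the right of the dashed line. Nppa rises from GMT (7.67 to 7.90) to NGMT (10.21 to 10.84), while DMT replicate 4 (12.56) and DMNT (12.67 to 12.76) lie side by side.

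Interferon-response genes were lower in DMNT almost throughout the list. Of 35 members tested, 34 were lower directly, where 28.1% of all genes were, 15 of them by at least 2-fold, and 0 were higher. Anchored, 13 were lower and 0 higher (18 and 0 at an unadjusted p under 0.05, limma), and in DMT against GMT 28 were lower and 0 higher. The median was -0.90 directly, -0.49 anchored and -0.71 between DMT and GMT. Of the 35, 4 passed the filter only through arrays without MYOCD. With no filter, 35 of 36 members were lower directly and 13 when anchored. The summed linear signal of the members was 24009 to 27615 in DMNT and 42802 to 47213 in NGMT, against 22641 in DMT replicate 4, 28585 to 29609 in DMT replicates 1 to 3 and 40591 to 42195 in 0F.

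Iigp1, an interferon-inducible GTPase, was at 5.49, 5.49, 5.66 and 5.41 in DMNT and at 9.96, 10.08 and 10.25 in NGMT, with 0F at 9.66 to 9.84. The difference was -4.59 ± 0.14 directly and -2.52 ± 0.25 anchored, since DMT replicate 4 (5.26) lay below DMT replicates 1 to 3 (7.24 to 7.41) as well. Oas2, which makes the activator of the antiviral nuclease RNase L, was at 8.18, 8.17, 8.46 and 8.19 against 10.55, 10.40 and 10.64. Trim30a, an interferon-induced TRIM protein, was at 9.17 to 9.51 against 11.60, 11.48 and 11.63, and Irf7, the factor that amplifies the interferon response, at 8.65 to 9.06 against 10.21 to 10.35. No overlap of DMNT and NGMT arrays was found in 74.8% of all genes tested, and the rule that named Iigp1 required it. All DMNT arrays lay below all NGMT arrays in these 4 genes, and Irf7 missed the anchored call with a difference of -0.94 (adjusted p = 0.0646), which was called without DMNT replicate 3 (-1.03, 0.0414).

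Several of the largest falls outside the list were also genes of innate immunity. Slfn5, a Schlafen family gene, was at 5.82 to 5.83 in DMNT and at 9.91 to 9.96 in NGMT, with differences of -4.11 ± 0.06 and -3.01 ± 0.12. Sp100, a nuclear body protein, was at 5.79 to 5.87 against 8.98, 8.78 and 9.11. C4b, which encodes complement component 4, was at 6.18 to 6.22 against 10.80, 10.72 and 10.64, with differences of -4.52 ± 0.25 and -3.23 ± 0.45, and DMT replicates 1 to 3 were spread from 6.88 to 8.60. Cfb, complement factor B, was at 6.60 to 6.65 against 10.01, 10.26 and 9.91, with differences of -3.44 ± 0.16 and -2.85 ± 0.29. In all 4 genes GMT and 0F lay with NGMT, above 8. The complement genes C1qa and C1qb differed by less, at 0.25 higher and 0.58 lower directly, neither with an anchored call. C1qb lay under the array median in both groups, at means of 5.56 and 6.14. The direct call of C1qa was lost without DMNT replicate 1, 2 or 4 or NGMT replicate 5 or 6 (limma adjusted p = 0.07 to 0.132). That of C1qb was lost without NGMT replicate 4 (0.0501).

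The interferon-stimulated response element (ISRE), searched on both strands as TTTC, any 2 bases and TTTC, was found for 15 of the 25 list members that were lower and had a promoter window (60.0%), for 21 of 105 genes at least 2-fold lower and called the same way when anchored (20%), for 8 of 129 at least 2-fold higher (6.2%) and for 337 of 9739 tested genes (3.46%). Among all 32851 windows it was found in 3.44%. The motif AGATAA, read by GATA factors, was found on either strand for 14 of the 105 lower genes (13.3%), 8 of the 129 higher genes (6.2%) and 724 of the 9739 tested (7.43%), and in 11.2% of all windows. The 250 bases before the start are shown for Slfn5 (chr11:82951852-82952101, plus strand) and for Oas3 (chr5:120777660-120777909, minus strand), a relative of Oas2 whose difference was -1.07 directly and -1.14 anchored, with the ISRE match in capitals 155 and 75 bases before the start. Both genes were lower in DMNT.
Slfn5: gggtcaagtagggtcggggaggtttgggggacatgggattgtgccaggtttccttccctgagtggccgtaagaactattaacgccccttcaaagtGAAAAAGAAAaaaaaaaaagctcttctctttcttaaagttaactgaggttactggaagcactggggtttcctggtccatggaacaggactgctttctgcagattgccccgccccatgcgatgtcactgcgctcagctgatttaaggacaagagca
Oas3: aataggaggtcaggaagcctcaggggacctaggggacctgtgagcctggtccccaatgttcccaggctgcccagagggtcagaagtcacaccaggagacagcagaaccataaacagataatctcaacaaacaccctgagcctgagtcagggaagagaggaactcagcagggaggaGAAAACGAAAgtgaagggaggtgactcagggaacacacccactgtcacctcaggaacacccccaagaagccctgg

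**Figure D4:**
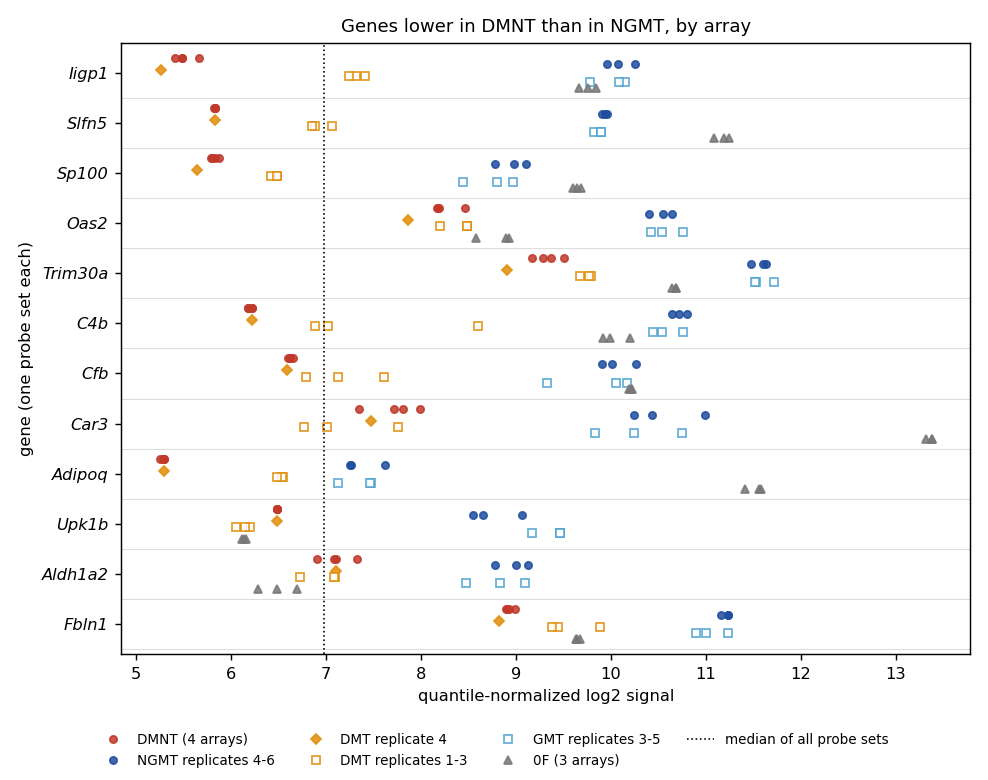
Quantile-normalized log2 signal (x axis) of 12 genes that were lower in DMNT than in NGMT (y axis) on each array of the groups named in the legend, with the median of all probe sets as a dotted line. DMNT and DMT replicate 4 lie to the left of NGMT and GMT in each row, and 0F lies at or above NGMT for Car3 (13.32 to 13.38) and below DMNT for Upk1b (6.12 to 6.16 against 6.48 to 6.49).

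Adipocyte genes were lower in part, beside 28.1% lower and 32.7% higher directly over all genes tested. Of 26 members tested, 15 were lower and 3 higher directly, 6 lower and 0 higher when anchored (12 and 0 at an unadjusted p under 0.05, limma), and the median was -0.42 directly and -0.25 anchored. Of the 26, 9 passed the filter only through arrays without MYOCD, and with no filter 16 of 29 members were lower and 3 higher directly and 6 lower and 0 higher when anchored. Car3, the carbonic anhydrase of fat and muscle, was at 7.99, 7.35, 7.72 and 7.81 in DMNT and at 10.99, 10.24 and 10.43 in NGMT, with differences of -2.84 ± 0.22 and -3.13 ± 0.41. Pparg, the master regulator of fat cells, was at 7.46 to 7.47 against 9.34 to 9.42, with differences of -1.91 and -1.26. Adipoq, which encodes adiponectin, was at 5.25 to 5.30 against 7.25 to 7.62, with differences of -2.10 and -0.88, the second not called. In 0F the list's summed signal was 102685 to 108499, against 10845 to 11164 in DMNT and 16383 to 18737 in NGMT, and Pparg was at 11.95 to 12.09. DMNT and NGMT both lay well below 0F, and DMNT lay below NGMT.

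Several markers of the mesothelium were lower in DMNT, where 28.1% of all genes tested were lower and 32.7% higher directly. Of 18 epithelial and mesothelial genes, 9 were lower and 7 higher directly and 6 were lower and 2 higher when anchored. Of the 18, 6 passed the filter only through arrays without MYOCD, and with no filter 12 of 26 members were higher and 9 lower directly and 2 higher and 5 lower when anchored. Upk1b, a uroplakin, was at 6.48 to 6.49 in DMNT, 8.65, 8.55 and 9.06 in NGMT and 6.12 to 6.16 in 0F, with differences of -2.27 ± 0.10 and -2.63 ± 0.19. Aldh1a2, the enzyme that makes retinoic acid in the epicardium, was at 7.33, 6.91, 7.09 and 7.11 against 8.78, 9.13 and 9.0, with differences of -1.86 ± 0.14 and -2.00 ± 0.25. Msln, which encodes mesothelin, was at 7.47 to 7.54 against 8.51 to 8.93. For these 3 genes DMNT lay between 0F and NGMT, and Krt18, an epithelial keratin, went the other way with a difference of 1.33 directly and 0.98 anchored, the second not called without NGMT replicate 4 (0.92, adjusted p = 0.0502).

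Fibroblast and matrix genes moved by less. Directly, 28.1% of all genes tested were lower and 32.7% higher. Of 67 members tested, 32 were lower and 7 higher directly, but 8 were lower and 2 higher when anchored, and the median was -0.28 directly and 0.01 anchored. The 8 anchored falls became 5 without NGMT replicate 4 or 6, and the 2 anchored rises became 0 without DMT replicate 2, NGMT replicate 4 or 6 or DMNT replicate 2 or 3 and 1 without DMT replicate 1 or DMNT replicate 1. The count of lower members was 56 with median centring, 10 on the deposited values and 9 with the array set as a term in the fit. Fbln1, which encodes the matrix protein fibulin 1, was at 8.90 to 8.99 against 11.16 to 11.23, with differences of -2.28 ± 0.12 and -1.53 ± 0.22, and Cd34, a marker of progenitor fibroblasts, at 9.78 to 10.06 against 11.57 to 11.75, with differences of -1.71 and -1.23. Col1a1, Postn and Vim had anchored differences of 0.16, 0.09 and -0.06, none called.

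Of 28 senescence and secretory genes, 13 were lower and 3 higher directly, where 28.1% of all genes were lower. The direct test left 12 not called, and 2 were lower and 1 higher when anchored. Of the 28, 4 passed the filter only through arrays without MYOCD, so the counts are partly set by the filter. With no filter, 15 of 34 members were lower and 5 higher directly, and 2 were lower and 0 higher when anchored. Without DMT replicate 1 the anchored falls went from 2 to 4, and the 1 anchored rise was lost when any 1 DMNT array, any 1 NGMT array or DMT replicate 1 or 2 was left out. Saa3, an acute-phase protein, was at 6.36 to 6.46 in DMNT and at 8.42, 9.32 and 8.50 in NGMT, with differences of -2.35 and -1.22, and Il6, the cytokine interleukin 6, at 5.10 to 5.26 against 6.79 to 7.14, with differences of -1.78 and -0.99. The anchored differences of Saa3 and Il6 were not called, apart from that of Saa3 without DMT replicate 1 (-1.50, adjusted p = 0.0385). Of 19 macrophage markers, 3 were higher and 5 lower directly, and limma called 0 when anchored, with 1 lower at an unadjusted p under 0.05. The 5 direct falls became 2 without NGMT replicate 4 and 3 without replicate 6, the 3 direct rises became 1 without replicate 5, and 13 of the 19 passed the filter only through arrays without MYOCD. Their summed signal was 3875 to 4035 in DMNT and 3981 to 4897 in NGMT, against 11614 to 17080 in 0F, and the defining marker Adgre1 was at 5.21 to 5.31 in DMNT and at 5.21 to 5.40 in NGMT. Lyz2, a lysozyme of macrophages, was at 8.63 in NGMT replicate 4 and at 6.41 and 6.80 in replicates 5 and 6, so 1 array carried much of its direct difference of -1.89.

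Of the 12 genes that rose most by the smaller of their direct and anchored differences, 5 belong to none of the gene lists. Pilra, an inhibitory immune receptor, was at 10.10 to 10.21 in DMNT and at 5.62, 5.34 and 5.35 in NGMT, with differences of 4.73 ± 0.13 and 4.12 ± 0.23. Efhd1, a calcium-binding mitochondrial protein, was at 11.35 to 11.45 against 7.06 to 7.18, and Tm6sf1, a membrane protein gene, at 10.24 to 10.43 against 6.47 to 6.55. Entpd1, which degrades extracellular ATP, was at 9.75 to 10.06 against 6.54 to 6.92, and Ceacam1, an adhesion molecule, at 8.72 to 9.14 against 5.41 to 5.58. All 5 genes were higher in DMT than in GMT. The differences were 4.22 for Pilra, 4.20 for Efhd1, 3.91 for Tm6sf1, 3.06 for Entpd1 and 2.83 for Ceacam1. The anchored difference, by which these genes were partly chosen, uses the same DMT arrays, so these values are not a separate test.

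**Figure D5:**
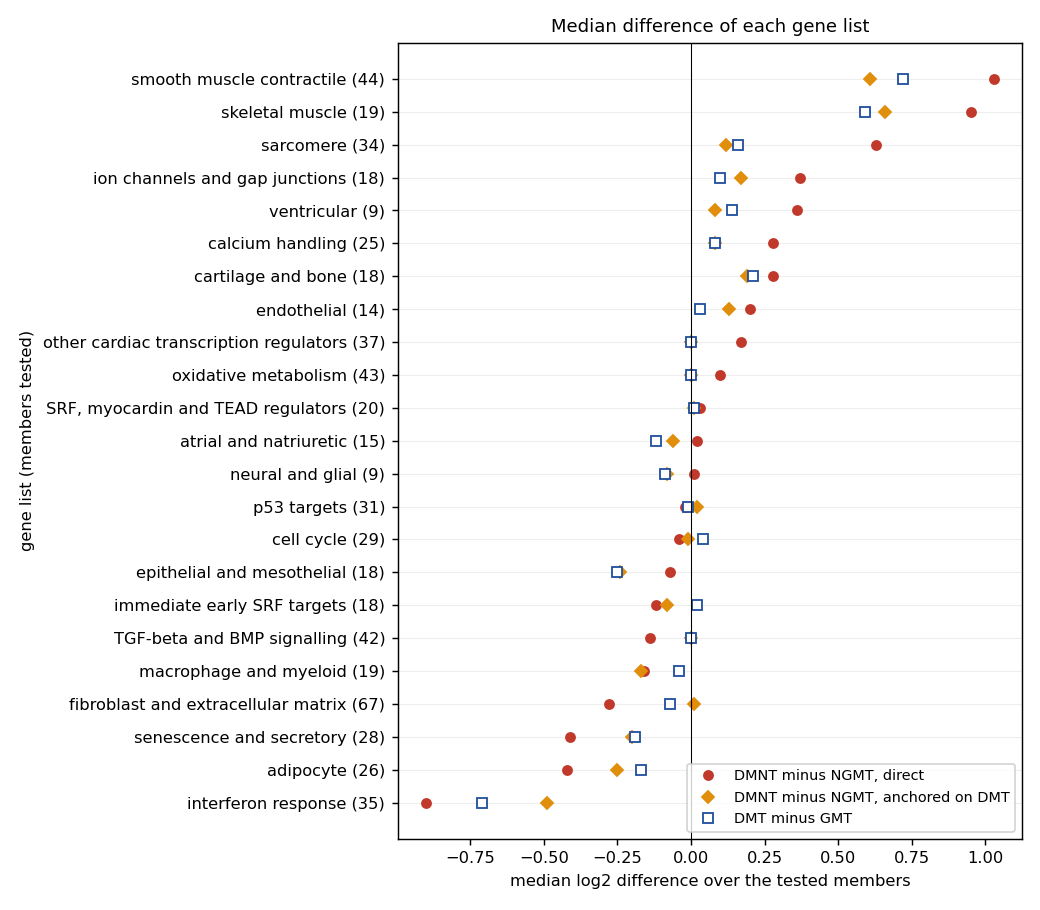
Median log2 difference (x axis) over the tested members of each gene list (y axis, number of members in parentheses) for DMNT minus NGMT directly (circles), DMNT minus NGMT anchored on DMT (diamonds) and DMT minus GMT (open squares), with the delivered factors left out. Smooth muscle genes lie furthest right directly (1.03) and between DMT and GMT (0.72), skeletal muscle genes do when anchored (0.66, against 0.61 for smooth muscle and 0.06 for all skeletal members with no filter), and interferon-response genes furthest left in the direct comparison (-0.90), and the direct medians of most lists lie further from 0 than the anchored ones.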

How the data were processed

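Total RNA of each sample was hybridized to 1-colour mouse arrays. The authors deposited log2 signals for 35556 probe sets on 28 arrays, and MAS5 is the tool in the submitters' processing notes, with parameters not given in the sources used here. Of the probe sets, 21789 had 1 gene symbol in the platform annotation, 1621 several and 12146 none, and only those with 1 symbol were used. Signals of all arrays were quantile-normalized, the probe set with the highest mean was kept for each of 19938 genes, and 12211 genes above the array median on at least 3 arrays were tested.

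A mean per group and array series was fitted over all 28 arrays (limma 3.58.1, R 4.3.3, lmFit, contrasts and eBayes with trend, 18 residual degrees of freedom). P-values are two-sided and Benjamini-Hochberg adjusted over all genes tested, and a gene was called at an adjusted p under 0.05. The direct and anchored contrasts are defined in the results. The contrasts of NGMT with GMT and of DMNT with DMT replicate 4 were added after the data were seen. Values are log2 differences ± SE. The median half-width of a gene's 95% interval was 0.133 directly and 0.241 anchored, and the number of arrays limits the precision. Simulations used independent normal noise with the pooled spread of each gene, 100 changed genes of each size and no difference between array sets. In simulated data of the same layout, 96% of genes changed by 0.5 were recovered in the direct and 63% in the anchored contrast.

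The members, gene lists and tests were chosen with earlier results of these data known. The lists hold 828 entries, 780 of them with a probe set of that symbol on the array and 624 among the genes tested. Some genes are in several lists, so the counts of different lists are not independent. Tnnt1 is in the sarcomere and the skeletal muscle list, and Pln in the smooth muscle and the calcium-handling list. The naming rule took every delivered factor, the 12 genes that rose most and the 12 that fell most by both contrasts, up to 4 members per list and the interaction call, 108 genes in all. The 12 rises and 12 falls came only from genes called the same way in both contrasts whose DMNT and NGMT arrays did not overlap. Other genes named were chosen after their values were seen. Promoter windows come from RefSeq (GRCm38.p6), with genes matched by symbol. Alternatives covered the normalization, filter, probe set rule, spread model, arrays in the fit, array set and each array left out.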

Additional observations from a re-analysis of the deposited data

Results flagged for a closer look

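The NKX2.5 effect on Nppa differed between the MYOCD and GATA4 cocktails by -2.68 in the interaction test. Among the 108 named genes, 13 had a DMNT array whose gap to the nearest other DMNT array exceeded Dixon's 95% critical value, and chance gives about 1 in 20. These were replicate 3 for Acan (7.79), Cd14 (7.05), Gpr165 (5.77), Lcn2 (9.29), Oas2 (8.46), Ppargc1b (6.87) and Tek (5.69), replicate 4 for C1qb (5.59), Csrp1 (12.64) and Tbx1 (7.24), and replicate 2 for Egr2 (6.83), Hey2 (7.04) and Tigar (8.82). For Gpr165 and Csrp1 the whole DMNT range was narrow, at 5.76 to 5.77 and 12.58 to 12.64.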

How the results depend on the processing

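Calls of DMNT against NGMT numbered 7420 in the results, 11305 on the deposited values, 12318 with no filter on dim genes and 754 with group and array set as additive terms. Those at least 2-fold numbered 519, and 1593 on the deposited values and 196 with the additive terms. The anchored calls went from 767 to 1691 with only the arrays of that contrast fitted. The NKX2.5 interaction went from 1 call to 4 on percentile ranks, 2 with no filter and 12 with only the arrays of the contrast. Leaving out each array gave 6645 to 7080 direct calls, 502 to 539 at 2-fold, 619 to 790 anchored, 1621 to 2135 in DMT against GMT and 1 to 1 in the interaction. DMT replicate 4 could not be left out of the anchored and interaction contrasts. The same holds for the fit with additive terms, where it is the only array that links the DMNT set to the others. The 754 calls of that fit are the same for the direct and the anchored contrast. On the deposited values the direct difference turned positive for Acadm (0.075), Bbc3 (0.17), C1qb (0.19), Cd14 (0.45), Corin (0.33), Csf1r (0.16), Csrp2 (0.030), Gata4 (0.64), Jun (0.015), Mbp (0.58), Mef2c (0.22), Pidd1 (0.23), Tbx5 (0.29) and Tyms (0.21). With the additive terms it turned for Cd14 (0.060), Mef2c (0.095), Tbx5 (0.046) and Nkx2-5 (-0.036), with all 6 NGMT arrays for Map2 (0.071) and with median centring for Ncam1 (-0.049). The cause of these changes was not tested. Smooth muscle members higher in DMNT numbered 28 to 42 over the scalings and the additive fit, and interferon members lower 12 to 35; these list counts were recomputed under alternatives chosen after seeing the data. With no filter on dim genes the anchored list median went from 0.66 to 0.06 for skeletal muscle, from 0.17 to -0.03 for ion channels and from -0.24 to -0.05 for epithelial and mesothelial genes. No paired analysis was possible because DMNT and NGMT replicates 4 to 6 share only replicate number 4, and DMT replicates 1 to 3 and GMT replicates 3 to 5 only number 3.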

Other observations

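Genes of cartilage and bone were mixed, beside 32.7% higher and 28.1% lower directly over all genes tested. Of 18 members tested, 11 were higher and 2 lower in DMNT directly, and 4 were higher and 1 lower when anchored (adjusted p under 0.05, limma). The 4 anchored rises became 2 without DMT replicate 2, NGMT replicate 4 or DMNT replicate 1, 2 or 3. Acan, which encodes the cartilage proteoglycan aggrecan, was at 8.24, 8.24, 7.79 and 8.19 in DMNT and at 5.70, 5.82 and 5.74 in NGMT, with differences of 2.36 directly and 1.52 anchored. Epyc, a small proteoglycan of cartilage, went the other way, at 7.86, 8.04, 8.51 and 8.05 against 11.13, 11.16 and 11.19, with differences of -3.04 and -1.49. Acan lay well above 0F (5.46 to 5.68) in DMNT, while Epyc was at 11.55 to 11.59 in 0F.

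Of 42 genes of TGF-beta and BMP signalling, 12 were higher and 21 lower directly, and 3 were higher and 2 lower when anchored. The 2 anchored falls became 5 without DMT replicate 1 and 1 without NGMT replicate 5. The ligand Tgfb3 was at 11.78 to 11.88 in DMNT and at 10.47, 10.61 and 10.45 in NGMT, with differences of 1.32 and 0.71, and the ligand Bmp4 at 10.18 to 10.45 against 9.37, 9.52 and 9.31, with differences of 0.87 and 1.11. Tgfbi, a matrix protein induced by TGF-beta, was at 9.66 to 9.99 against 11.43 to 11.49, with differences of -1.69 and -1.02, the second not called without DMT replicate 3 (adjusted p = 0.0725) or NGMT replicate 5 (0.052). Directly, 8 of 29 cell cycle genes were higher and 11 lower, 6 of 31 p53 targets were higher and 8 lower, and 18 of 43 oxidative metabolism genes were higher and 4 lower. These counts and those of TGF-beta and BMP signalling stand beside 32.7% higher and 28.1% lower over all genes tested. Without NGMT replicate 6 the p53 targets higher went from 6 to 3. Cell cycle, p53 and oxidative metabolism genes had median anchored differences of -0.01, 0.02 and 0.00, with 1 of 29, 0 of 31 and 1 of 43 members called by limma, and 1 p53 target was lower at an unadjusted p under 0.05.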
